A study of Mus musculus with 6 samples.

Results

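The insulin-like growth factor (IGF) axis was followed in mouse hearts through 8 genes: the ligand *Igf1*, the receptor *Igf1r*, and the 6 binding protein genes *Igfbp2*, *Igfbp3*, *Igfbp4*, *Igfbp5*, *Igfbp6* and *Igfbp7*. They were taken by symbol from a table of 23995 genes, and all 8 were found. RNA sequencing covered hearts of mice that had undergone transverse aortic constriction (TAC), an operation that tightens a suture around the aortic arch and so loads the left ventricle with pressure. The mice were 10 to 12 weeks old at surgery. There were 3 libraries labelled WT, whose short names carry FLOX, and 3 labelled LTBP4-CKO. The latter are inducible, cardiomyocyte-specific knockouts of *Ltbp4*, the gene of latent transforming growth factor beta binding protein 4. The sources used here do not name the Cre driver, the inducing agent, the sex or the time between surgery and harvest, nor do they say whether the WT mice carried floxed alleles or Cre. Every heart had TAC, so each comparison is between genotypes under pressure load.

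IGF1 is a secreted growth factor, made in the liver under the control of growth hormone and also locally in many tissues. It binds the receptor tyrosine kinase IGF1R, which signals through insulin receptor substrates, PI3-kinase and AKT to growth and survival. In cardiomyocytes this pathway is known for its part in physiological growth of the heart. The secreted binding proteins IGFBP2 to IGFBP6 hold IGF1 and IGF2 with high affinity and so prolong their life, keep them from the receptor or deliver them to it. IGFBP7 is a related protein with much weaker IGF binding.

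The labels list 6 separate samples, but some libraries were too alike to be counted separately. WT libraries 1 and 3, and knockout libraries 2 and 3, differed by 1.24 to 1.96 times the counting variance in genes of every depth. The other 13 pairs differed by 3.40 to 10.7 times among the shallowest genes and by 73.1 to 265 times among the deepest. Each close pair was averaged and counted as 1 sample, which left 2 samples per genotype, and p-values measure only the spread between these samples. The depth recovered from low values was about 3700000 to 5900000 fragments in WT libraries and 5900000 to 14100000 in knockout libraries, deepest in knockout library 1. *Ltbp4* itself was at 368, 248 and 357 FPKM (fragments scaled to transcript length and library size) in WT libraries 1 to 3 and at 139, 199 and 195 in knockout libraries 1 to 3, a log2 difference of −0.86 with SE 0.49 (limma across all genes, Benjamini-Hochberg adjusted p = 0.999). The 6 cardiomyocyte markers summed to between 3688 and 20650 FPKM per library, and the 4 liver markers to at most 2.94. The atrial markers *Sln* and *Myl4* were at 1857 and 2629 FPKM in WT library 1 and at 1847 and 2560 in WT library 3, but at 16.0 or lower in the other 4 libraries.

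After TAC, *Igf1* and the binding protein genes *Igfbp4* and *Igfbp7* stood below all WT libraries in each knockout library, and *Igf1r* was slightly higher in every knockout library. *Igfbp2*, *Igfbp3*, *Igfbp5* and *Igfbp6* overlapped between the genotypes. All 8 genes passed the filter on low values, and 0 of 8 passed the test across all genes (limma, Benjamini-Hochberg adjusted p = 0.999 for each). Across 12485 genes tested, 0.00801% passed. Of all tested genes, 11.5% lay lower in all 3 knockout libraries, beside 3 of the 8 members, and 10.4% lay higher in all 3, beside 1 of the 8. Estimates were below 0 in 6 of the 8, against 45.8% of all tested genes, and their median was −0.99 on the log2 scale, against 0.04. For 6 of the 8, the spread of libraries within a genotype exceeded the difference between the genotype means, which was so for 86.2% of all tested genes. Taken by genotype, the spread of the knockout libraries exceeded the difference in 4 of the 8 (73.3% of all tested genes), and that of the WT libraries in 4 of the 8 (68.2%). With the 6 libraries entered as separate samples, 0 of 8 passed as well, beside 0.016% of all tested genes. Rescaling each library to the same total moved the median of all genes from 0.04 to −0.08.

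The upstream sequences of 4 binding protein genes are shown because their transcripts behaved in different ways. *Igfbp2* and *Igfbp5* lie tail to tail on chromosome 1, their ends 5.6 kb apart, and had the widest and the narrowest spread of the 6 binding protein genes over the libraries. *Igfbp4* and *Igfbp7* were the binding protein genes lower in every knockout library. Each line gives the 250 bases before a RefSeq transcript start (GRCm38.p6, the assembly behind mm10), 5′ to 3′ on the strand of the gene. The windows are chr1:72824230-72824479 on the plus strand for *Igfbp2*, chr1:72874866-72875115 on the minus strand for *Igfbp5*, chr11:99040994-99041243 on the plus strand for *Igfbp4* and chr5:77408046-77408295 on the minus strand for *Igfbp7*. Capitals mark exact matches, on either strand, to the GC box GGGCGG, the TATA box TATAAA, the CCAAT box CCAAT or the E-box CACGTG.
Igfbp2: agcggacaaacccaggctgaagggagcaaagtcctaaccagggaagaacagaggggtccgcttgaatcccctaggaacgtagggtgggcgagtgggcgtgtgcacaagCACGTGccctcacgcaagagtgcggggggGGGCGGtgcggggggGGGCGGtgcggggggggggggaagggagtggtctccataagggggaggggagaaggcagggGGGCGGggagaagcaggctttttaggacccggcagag
Igfbp5: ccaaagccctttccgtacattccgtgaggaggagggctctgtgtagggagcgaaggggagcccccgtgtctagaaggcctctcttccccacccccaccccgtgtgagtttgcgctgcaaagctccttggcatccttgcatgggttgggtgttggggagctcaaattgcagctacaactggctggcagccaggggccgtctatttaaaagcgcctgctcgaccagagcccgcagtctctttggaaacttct
Igfbp4: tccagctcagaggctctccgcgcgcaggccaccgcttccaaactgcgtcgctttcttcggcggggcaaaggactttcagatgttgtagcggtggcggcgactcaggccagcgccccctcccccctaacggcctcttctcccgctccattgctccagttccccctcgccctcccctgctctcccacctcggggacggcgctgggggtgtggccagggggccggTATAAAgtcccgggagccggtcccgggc
Igfbp7: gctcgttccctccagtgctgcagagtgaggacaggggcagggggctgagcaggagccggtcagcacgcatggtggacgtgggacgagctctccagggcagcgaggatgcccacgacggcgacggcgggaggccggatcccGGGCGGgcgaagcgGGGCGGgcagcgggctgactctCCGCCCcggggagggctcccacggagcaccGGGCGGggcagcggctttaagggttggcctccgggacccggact
The *Igfbp2* window shown held 3 GC boxes and 1 E-box, and that of *Igfbp7* held 4 GC boxes. *Igfbp2* has another RefSeq start, 907 bases downstream, whose window (chr1:72825137-72825386, not shown) held none of the 4 motifs. The *Igfbp4* window held 1 TATA box, and the *Igfbp5* window held none of the 4 motifs, which says only that these exact letters are not in it. No matches of different motifs overlapped. Among 32851 upstream windows of the same length, 32.7% held a GC box, 12.4% a TATA box, 33.8% a CCAAT box and 6.02% an E-box.

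**Figure D1:**
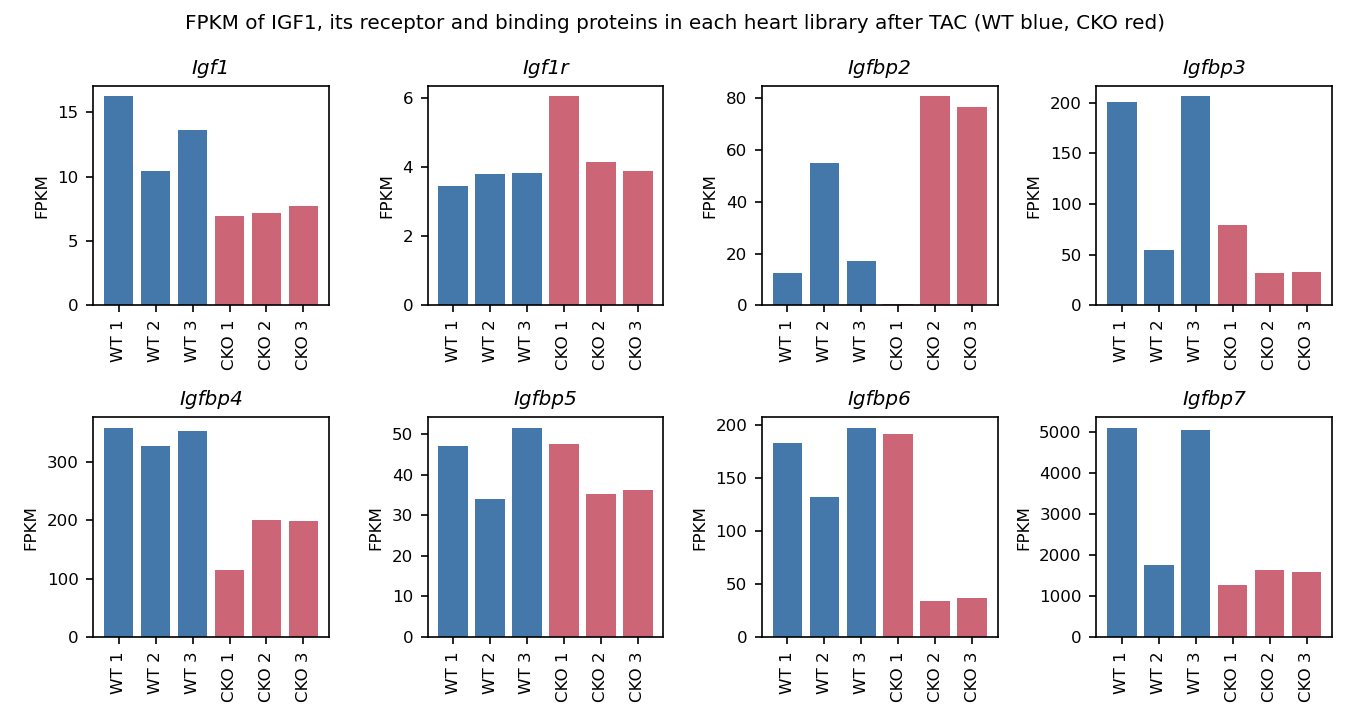
FPKM (vertical axis, from 0, with its own scale in each panel) of the 8 IGF genes in the 3 WT libraries (blue) and the 3 LTBP4-CKO libraries (red), 1 bar per library. *Igf1* and *Igfbp4* are lower in every knockout library, *Igfbp7* is highest in WT libraries 1 and 3, and *Igfbp2* is at 0.421 FPKM in knockout library 1, too low for its bar to be seen.

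*Igf1*, the ligand, is transcribed from the plus strand of chromosome 10, from 87859056 to 87937047 in mm10, and like the other 7 genes it is a protein-coding gene. Its level rests on about 9.0 to 21.1 fragments per library if all came from the shortest coding transcript and 259.7 to 659.4 if all came from the longest. It was at 16.2, 10.5 and 13.7 FPKM in WT libraries 1 to 3 and at 6.97, 7.18 and 7.70 in knockout libraries 1 to 3. All 3 knockout values were close to each other and below the lowest WT value. Over samples this was 12.7 ± 3.17 FPKM (SD, n = 2) in WT and 7.2 ± 0.335 (SD, n = 2) in knockout hearts. The difference in log2(FPKM + 1) was −0.72 (SE 0.36, 95% interval −1.58 to 0.14; limma, unadjusted p = 0.0865, Benjamini-Hochberg adjusted p = 0.999). Permuting the 6 libraries exactly gave a two-sided p of 0.1 and permuting the 4 samples 0.333, in each case the smallest possible. The estimate was −0.48 without WT libraries 1 and 3 and −0.96 without WT library 2. Within the first run of record numbers, which holds 2 libraries per genotype, the difference was −0.80, and within the second, which holds 1 per genotype (WT library 3 and knockout library 3, each close to a library of the first), −0.75.

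Some lists of cell type markers were lower beside *Igf1* and others were not. All 6 cardiomyocyte markers had higher estimates, as had 6 of 8 endothelial markers, and smooth muscle and pericyte markers were split, 4 lower and 4 higher. All 7 macrophage markers tested were lower in every knockout library, as were 11.5% of all tested genes. Their sum lay between 322 and 562 FPKM in WT and between 213 and 246 in knockout libraries. All 8 fibroblast markers had lower estimates, 3 of them without overlap, with sums of 1265 to 3259 FPKM in WT and 519 to 2181 in knockout libraries. No marker of either list was at 0 in a library. The adipocyte markers also differed, with sums of 205 to 570 FPKM in WT and 1.02 to 21.5 in knockout libraries, and the adipocyte marker *Lep* was listed at 0 in all 6. Their part in the *Igf1* value was not tested, and in whole tissue fewer cells of a type and less RNA per cell cannot be told apart.

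*Igf1r*, the receptor, maps to chromosome 7, plus strand, positions 67952257 to 68233667 of mm10, and its coding transcript has 21 exons. It had the lowest mean level of the 8 genes, though *Igfbp2* was lower in knockout library 1. *Igf1r* was at 3.47, 3.81 and 3.84 FPKM in WT libraries 1 to 3 against 6.06, 4.15 and 3.89 in knockout libraries 1 to 3. Knockout library 1 was the highest, and knockout library 3 exceeded WT library 3 by little. These values rest on about 155 to 944 fragments per library. The estimate was 0.33 (SE 0.39, 95% interval −0.60 to 1.27; limma, Benjamini-Hochberg adjusted p = 0.999), 0.09 without knockout library 1 and 0.58 without knockout libraries 2 and 3. Knockout library 1 also had the highest cardiomyocyte marker sum, 20650 FPKM against 6797 and 6906 in the other knockout libraries and 3688 to 10590 in WT. No cardiomyocyte marker was at 0, and their part in the receptor's value was not tested. Within the first run of record numbers the *Igf1r* difference was 0.38 and within the second 0.02. Ligand over receptor transcript was 4.69, 2.75 and 3.56 in WT libraries 1 to 3 against 1.15, 1.73 and 1.98 in knockout libraries 1 to 3. That these do not overlap adds no separate result. It follows from *Igf1* lying lower and *Igf1r* higher in every knockout library.

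**Figure D2:**
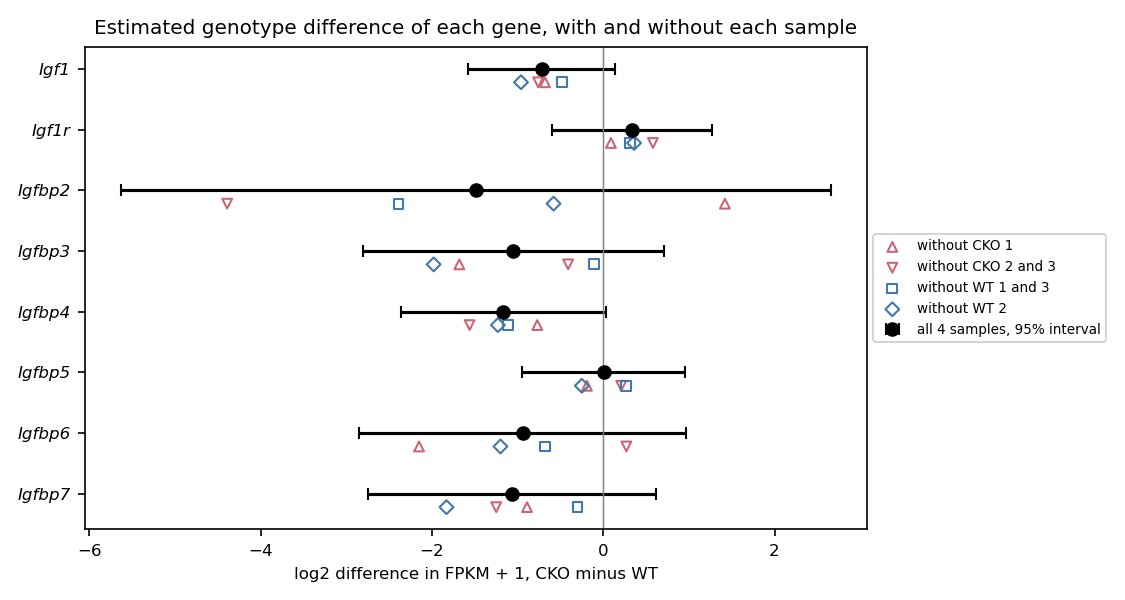
Estimated difference between LTBP4-CKO and WT in log2(FPKM + 1) (horizontal axis) for each gene, with the 95% interval over the 4 samples (black) and the estimate after leaving out each sample (open symbols). All 8 intervals include 0, and the *Igfbp2* estimate moves from −4.39 to 1.42 with the sample left out.

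*Igfbp4* and *Igfbp7* were the most abundant binding protein transcripts and lay lower in every knockout library. *Igfbp4* encodes a carrier that restrains IGF action until the protease PAPP-A cleaves it, and maps to chromosome 11, plus strand, positions 99041260 to 99052643 of mm10. It was at 359, 327 and 354 FPKM in WT libraries 1 to 3 and at 115, 201 and 198 in knockout libraries 1 to 3. The WT libraries were within 1.10 times of each other, and the highest knockout value was below all of them. Over samples this was 342 ± 20.5 FPKM (SD, n = 2) in WT and 157 ± 59.9 (SD, n = 2) in knockout hearts, a log2 difference of −1.17 (SE 0.50, 95% interval −2.36 to 0.03; limma, unadjusted p = 0.0543, Benjamini-Hochberg adjusted p = 0.999). The exact permutation p of *Igfbp4* was 0.1 over 6 libraries and 0.333 over 4 samples, the smallest possible. The estimate was −0.77 without knockout library 1. The difference was −1.17 within the first run of record numbers and −0.83 within the second. The fibroblast marker sum was 3259, 1265 and 3241 FPKM in WT libraries 1 to 3 and 2181, 519 and 526 in the knockout. Knockout library 1, the lowest in *Igfbp4*, had the highest of the knockout sums. Estimates were also lower for 5 of 6 mesothelial, 5 of 5 adipocyte and 4 of 4 Schwann cell markers tested, against 45.8% of all tested genes. The part of any of these cell types in the *Igfbp4* value was not tested.

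*Igfbp7* encodes a secreted protein found in vessel walls and basement membranes, and maps to chromosome 5, minus strand, positions 77310484 to 77408045 of mm10. This is the deposited span, which is longer than the gene in GENCODE M21, 77349240 to 77408041. *Igfbp7* ranked 28 among the 12485 tested genes by mean FPKM. Its values were 5102, 1756 and 5062 FPKM in WT libraries 1 to 3 against 1259, 1632 and 1589 in knockout libraries 1 to 3. WT libraries 1 and 3 stood far above the rest, and WT library 2 lay only just above knockout library 2. The estimate was −1.07 (SE 0.70, 95% interval −2.75 to 0.62; limma, Benjamini-Hochberg adjusted p = 0.999), −0.30 without WT libraries 1 and 3 and −1.83 without WT library 2. Within the first run of record numbers the difference was −1.06 and within the second −1.67. The 2 high libraries were those with atrial transcripts: the 6 atrial markers summed to 37550 and 37639 FPKM there, to 1587 in WT library 2 and to 13932, 290 and 279 in knockout libraries 1 to 3. No atrial marker was at 0. *Nppa*, the atrial natriuretic peptide gene that stressed ventricles also express, made up most of this sum in every library. It was at 13882 FPKM in knockout library 1 and at 30529, 1511 and 30706 in WT libraries 1 to 3. The atrial marker *Myl7* was at 2213 and 2221 FPKM in WT libraries 1 and 3 and at 14.3 or lower elsewhere. The endothelial marker sum was 1349 and 1350 FPKM in WT libraries 1 and 3, 1835 in WT library 2 and 1096 to 2070 in knockout libraries, and 2 of 8 had lower estimates. The part of atrial or endothelial RNA in the *Igfbp7* value was not tested.

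*Igfbp3* and *Igfbp6* had lower estimates but overlapped between the genotypes. *Igfbp3*, whose product carries most circulating IGF, maps to chromosome 11, minus strand, positions 7206091 to 7213923 of mm10. It was at 200, 54.8 and 206 FPKM in WT libraries 1 to 3 and at 79.3, 31.6 and 32.8 in knockout libraries 1 to 3. Knockout library 1 exceeded WT library 2, and within each genotype the sample with more fibroblast marker RNA was the higher one. The estimate was −1.05 (SE 0.73; limma, Benjamini-Hochberg adjusted p = 0.999), with −0.11 without WT libraries 1 and 3, −0.41 without knockout libraries 2 and 3, −1.68 without knockout library 1 and −1.98 without WT library 2.

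*Igfbp6* encodes a carrier that prefers IGF2, and maps to chromosome 15, plus strand, positions 102144186 to 102149512 of mm10. It was at 183, 132 and 197 FPKM in WT libraries 1 to 3 and at 191, 33.4 and 36.4 in knockout libraries 1 to 3. Knockout library 1 was at the WT level, and the other knockout libraries were far lower, a 5.73-fold range within 1 genotype. That range, on the log2(FPKM + 1) scale, was the 233rd widest among knockout libraries of the 12485 tested genes. The estimate was −0.94 (SE 0.80; limma, Benjamini-Hochberg adjusted p = 0.999), −2.15 without knockout library 1 and 0.27 without knockout libraries 2 and 3. The fibroblast marker *Dcn*, a proteoglycan gene, had the same order within the knockout, at 1528, 212 and 222 FPKM in knockout libraries 1 to 3, with 1898, 616 and 1902 in WT libraries 1 to 3. Markers of the same list differed in size within the knockout. In knockout libraries 1 to 3 *Pdgfra* was at 23.2, 4.39 and 4.56 FPKM, but *Col1a1* was at 57.1, 49.9 and 52.7 and *Ddr2* at 10.5, 6.58 and 7.18. The part of fibroblast content in *Igfbp3* and *Igfbp6*, and of atrial RNA in *Igfbp3*, was not tested.

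*Igfbp2* and its neighbour *Igfbp5* differed most in how they varied. *Igfbp2* encodes a carrier with an integrin-binding motif and maps to chromosome 1, plus strand, positions 72824480 to 72852471 of mm10. It was at 12.5, 54.9 and 17.3 FPKM in WT libraries 1 to 3 and at 0.421, 80.8 and 76.8 in knockout libraries 1 to 3. Both the lowest and the highest library were knockouts, 192-fold apart, and knockout library 1 held about 5.8 fragments of *Igfbp2* against 489 and 526 in knockout libraries 2 and 3, at the longest coding transcript (3.9 in knockout library 1 at the shortest). This range was the 4th widest within the knockout among the 12485 tested genes. The estimate of −1.49 had an SE of 1.72 (95% interval −5.63 to 2.66; limma, Benjamini-Hochberg adjusted p = 0.999). It was 1.42 without knockout library 1, −4.39 without knockout libraries 2 and 3, −2.39 without WT libraries 1 and 3 and −0.58 without WT library 2. Over the 6 libraries its exact permutation p was 1, two-sided. The sign also differed between the runs of record numbers, −1.35 within the first and 2.09 within the second.

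*Igf2*, the second ligand of the axis, had the same order of samples as *Igfbp2*, at 17.4, 40.2 and 16.5 FPKM in WT libraries 1 to 3 against 10.3, 87.8 and 87.3 in knockout libraries 1 to 3. Its estimate was 0.22 (SE 0.95), −1.27 without knockout libraries 2 and 3 and −0.38 without WT libraries 1 and 3. The smooth muscle markers *Acta2* and *Tagln* were also lowest in knockout library 1, at 65.6 and 56.7 FPKM, against 323 and 439 in knockout library 2 and 311 and 423 in knockout library 3. Other markers of the same list went the other way: *Rgs5*, *Kcnj8*, *Abcc9* and *Notch3* were highest of all 6 libraries in knockout library 1, at 53.3, 66.6, 40.0 and 14.4 FPKM, against 31.6, 22.5, 6.25 and 5.34 in knockout library 2. In WT, *Acta2* and *Tagln* were at 122 and 231 FPKM in library 1, 299 and 485 in library 2 and 117 and 225 in library 3. Over the 8 smooth muscle and pericyte markers, 4 estimates were lower and 4 higher, the sums were 527 to 1013 FPKM in WT and 386 to 927 in knockout libraries, and none was at 0. The part of vessel wall cells in the *Igfbp2* values was not tested.

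*Igfbp5*, whose product binds IGFs and matrix, maps to chromosome 1, minus strand, positions 72858065 to 72874865 of mm10. It was at 47.0, 34.0 and 51.5 FPKM in WT libraries 1 to 3 and at 47.5, 35.2 and 36.1 in knockout libraries 1 to 3. The groups overlapped fully and the sample means were 41.6 ± 10.8 and 41.6 ± 8.36 FPKM (SD, n = 2 each). The estimate was 0.01 (SE 0.40, 95% interval −0.95 to 0.96; limma, Benjamini-Hochberg adjusted p = 0.999). Its sign changed under several settings, between −0.25 and 0.27. At the levels measured here, *Igfbp2* exceeded *Igfbp5* in 3 of 6 libraries.

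By mean FPKM over the 6 libraries, a measure that allows for transcript length, the order was *Igfbp7* (2733), *Igfbp4* (259), *Igfbp6* (129), *Igfbp3* (101), *Igfbp5* (41.9), *Igfbp2* (40.4), *Igf1* (10.4) and *Igf1r* (4.20). *Igfbp7* exceeded *Igfbp4*, and *Igf1* exceeded *Igf1r*, in 6 of 6 libraries. *Igfbp4* exceeded *Igfbp6* in 5 of 6, *Igfbp6* exceeded *Igfbp3* in 4 of 6, *Igfbp3* exceeded *Igfbp5* in 4 of 6, and *Igfbp2* exceeded *Igf1* in 4 of 6, so these neighbours were not separated beyond their spread.

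The 6 binding protein transcripts together were less abundant in every knockout library. Their summed level was 5904, 2359 and 5888 FPKM in WT libraries 1 to 3 against 1692, 2014 and 1969 in knockout libraries 1 to 3. The log2 difference of the sums was −1.02, with an exact two-sided permutation p of 0.333 over 4 samples and 0.1 over 6 libraries, the smallest possible in each case. It was −0.36 without WT libraries 1 and 3 and −1.68 without WT library 2. *Igfbp7* made up 74.4% to 86.4% of the sum in every library. Without *Igfbp7*, a setting chosen after seeing the data, the sums were 802, 603 and 826 FPKM in WT libraries 1 to 3. In knockout libraries 1 to 3 they were 434, 382 and 380, again without overlap. The log2 difference was −0.78 (exact permutation p = 0.333 over 4 samples, the smallest possible).

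The make-up of this smaller pool differed between libraries of the same genotype. *Igfbp4* was the largest share in 5 libraries, from 42.8% to 54.3% of the summed *Igfbp2* to *Igfbp6* FPKM, but 26.5% in knockout library 1, where *Igfbp6* reached 44.1%. *Igfbp2* made up 21.1% and 20.2% in knockout libraries 2 and 3, 0.0971% in knockout library 1, and 1.56%, 9.11% and 2.10% in WT libraries 1 to 3. The ligand relative to this smaller pool, a setting chosen after seeing the data, varied less than these shares. Per 100 FPKM of *Igfbp2* to *Igfbp6*, *Igf1* stood at 2.03, 1.74 and 1.65 FPKM in WT libraries 1 to 3. The knockout values were 1.61, 1.88 and 2.02, in the same order. The genotypes overlapped fully (log2 difference −0.01, exact permutation p = 1 over 4 samples). With *Igfbp7* in the sum, the planned setting, the ratio varied more. It ran from 0.232 to 0.444 FPKM per 100 FPKM among WT libraries and from 0.356 to 0.412 among those of the knockout. The log2 difference was then 0.22 (p = 1 in the same permutation test), and −0.18 without WT libraries 1 and 3.

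**Figure D3:**
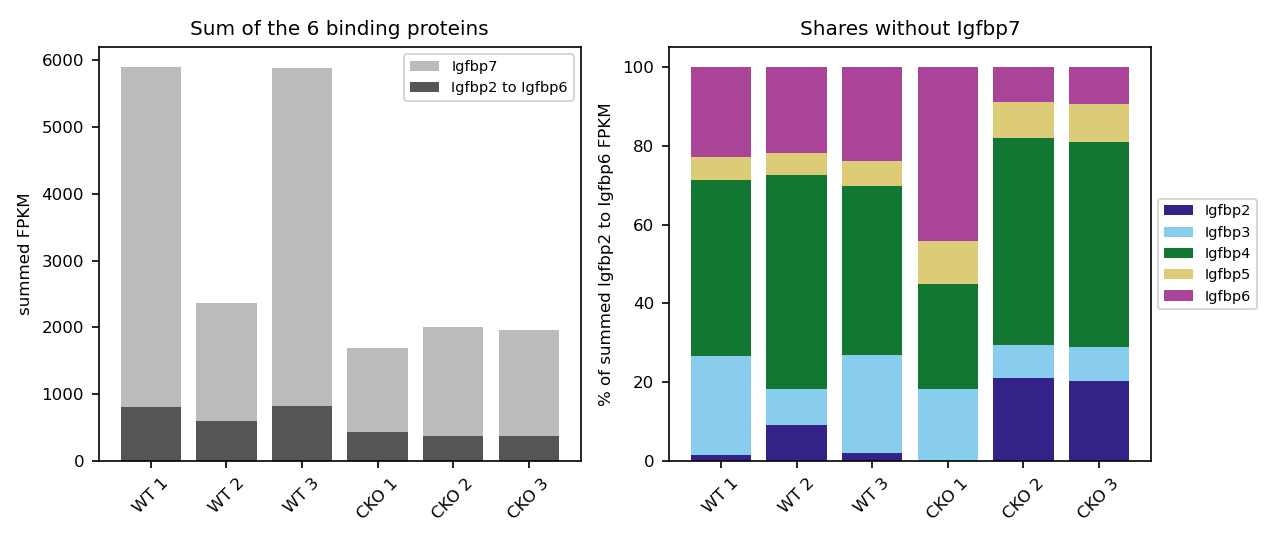
Left, summed FPKM of *Igfbp2* to *Igfbp6* (dark) and *Igfbp7* (light) in each library, on an axis from 0. Right, the share of each of *Igfbp2* to *Igfbp6* in their sum, in percent. The sums of 1692 to 2014 FPKM in the knockout libraries lie below the 2359 to 5904 of WT, and *Igfbp2* is nearly absent from knockout library 1.

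Other genes of the axis, from a list of 18, gave 0 calls among 11 tested, with 4 lower and 7 higher estimates and a median of 0.12. *Igfbp1*, the remaining classical binding protein gene, was listed at 0 in all 6 libraries. *Kazald1*, which encodes an IGFBP-related protein, was at 26.9, 15.7 and 26.2 FPKM in WT libraries 1 to 3 against 8.27, 5.19 and 6.23 in knockout libraries 1 to 3, an estimate of −1.44 (SE 0.41). *Esm1*, which encodes an endothelial proteoglycan with an IGFBP-type domain, was at 32.7, 5.95 and 34.9 FPKM in WT and 4.14, 1.57 and 1.56 in knockout (−2.10, SE 0.78). Both were lower in every knockout library, and neither passed (limma, Benjamini-Hochberg adjusted p = 0.999). Without WT libraries 1 and 3, where it was high, the *Esm1* estimate was −0.94.

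Of the proteins that act on the carriers, *Pappa*, the IGFBP4 protease gene, was below the filter, at 0 to 0.582 FPKM. *Stc2*, which encodes an inhibitor of that protease, overlapped at 29.1, 9.31 and 29.0 FPKM in WT and 5.67, 9.67 and 9.96 in knockout libraries. *Htra1*, a protease gene, had an estimate of −0.64, which was −0.14 without WT libraries 1 and 3 and −1.14 without WT library 2. Of the other receptors, *Igf2r*, which clears IGF2, was at 11.2, 16.0 and 10.8 FPKM in WT and 18.0, 18.0 and 18.7 in knockout libraries, higher in every knockout library (0.42, SE 0.36; 0.17 without WT libraries 1 and 3 and 0.67 without WT library 2). The insulin receptor gene *Insr* overlapped (0.17, SE 0.52) and changed sign between settings.

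Downstream of the receptor, 27 of 28 genes of the signalling list were tested, with 20 higher and 7 lower estimates, a median of 0.23 and 0 calls. *Pik3cb*, a PI3-kinase catalytic subunit gene (0.60, SE 0.36), and *Ptpn11*, the SHP2 phosphatase gene (0.57, SE 0.35), were higher in every knockout library, and *Tsc2*, a brake on mTOR, was lower in every one (−0.58, SE 0.41). The *Tsc2* estimate was −0.22 without WT library 2 and −0.95 without WT libraries 1 and 3. *Irs1* (0.23, SE 0.54) overlapped, and *Irs2* was below the filter. Without knockout library 1, 12 estimates of the list were lower in place of 7.

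The FoxO list of 18 held genes induced by FoxO factors, which IGF signalling restrains, and the factor genes *Foxo1*, *Foxo3* and *Foxo4* themselves. Of the 18, 10 had lower and 8 higher estimates, with a median of −0.08 and 0 calls. The 3 factor genes were among the lower ones, and *Eif4ebp1* is also in the signalling list. *Pdk4*, a brake on pyruvate oxidation, was at 61.3, 47.5 and 62.3 FPKM in WT and 45.2, 11.5 and 11.8 in knockout libraries (−1.19, SE 0.63), and its estimate was −2.12 without knockout library 1 and −0.26 without knockout libraries 2 and 3. *Sesn3* (−0.65) and *Gabarapl1* (−0.66, or −0.29 without knockout libraries 2 and 3 and −1.02 without knockout library 1) were lower in every knockout library too. Without knockout library 1, 16 of the 18 estimates were lower, and over all samples or libraries left out the number ran from 7 to 16.

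The growth hormone list of 12 genes, all tested, had 7 lower and 5 higher estimates, a median of −0.07 and 0 calls. The receptor gene *Ghr* overlapped, at 35.5, 24.9 and 32.3 FPKM in WT and 40.8, 15.8 and 21.3 in knockout libraries. The STAT5 target *Socs2* was at 36.1, 26.3 and 37.9 FPKM in WT and 46.1, 47.2 and 48.1 in knockout libraries (0.57, SE 0.38; 0.33 without WT library 2). *Cish*, another STAT5 target, was higher in every knockout library (1.38, SE 0.41), while *Socs1*, a cytokine feedback inhibitor, was lower in every one (−0.84, SE 0.36). None passed (limma, Benjamini-Hochberg adjusted p = 0.999 for each).

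The genes whose log2(FPKM + 1) followed each member most closely over the 6 libraries were found by Pearson's r, as a description of 6 libraries that make up 4 samples. For *Igf1* these were *Zfpl1* (r = 0.9978), *Tbce* (0.9974) and *Il16* (0.9961), and *Il16*, a cytokine gene, stood at 17.2, 12 and 15.5 FPKM in WT and 8.59, 8.21 and 9.12 in knockout libraries. For *Igf1r* the closest was *Zfp768* (0.9946), for *Igfbp4* *Recql5* (0.9979) and for *Igfbp5* *Napg* (0.9995). For *Igfbp3* it was *Arrdc3* (0.9997), for *Igfbp6* *Foxp1* (0.9957) and for *Igfbp2* *Rtfdc1* (0.9984). *Rtfdc1* ranged only from 31.2 to 47.9 FPKM, so its likeness is of shape and not of size. For *Igfbp7* the closest were *Uchl1* (0.9994), *Nucb2* (0.9979) and the atrial gene *Sln* (0.9972). *Sln* ranged from 0.684 to 1857 FPKM and *Igfbp7* from 1259 to 5102, so this likeness too is of shape and not of size. All the genes named here were picked as the closest among the tested genes over few samples, so their r is high by selection.

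**Figure D4:**
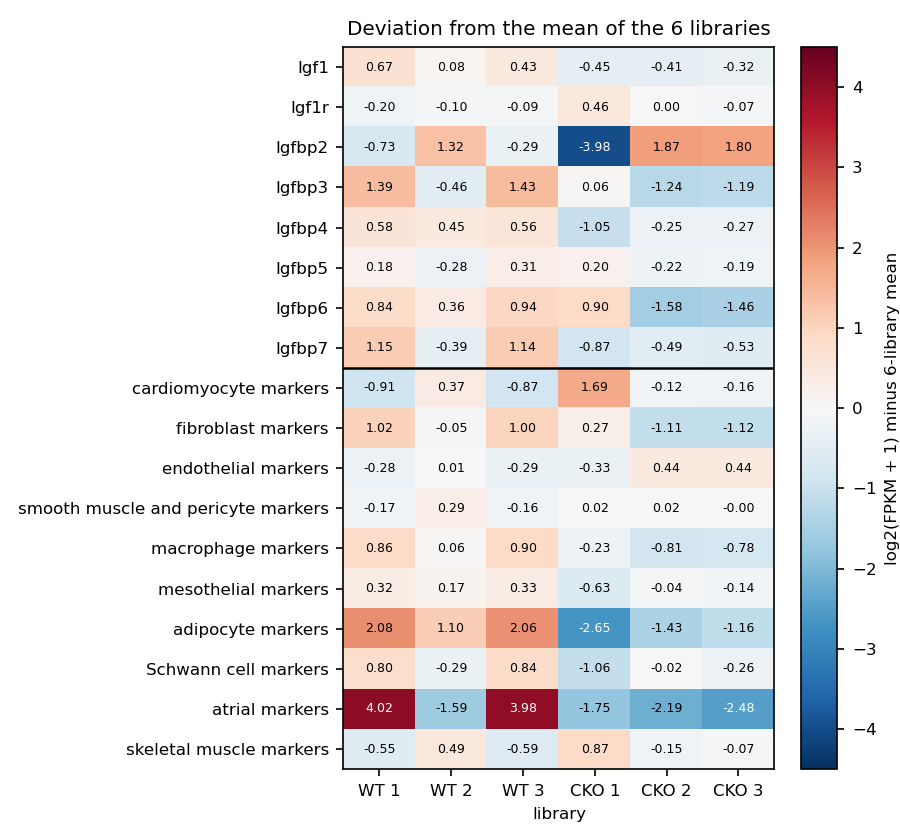
Deviation of each IGF gene (upper rows) and of the mean of each marker list (lower rows) from its 6-library mean, in log2(FPKM + 1), by library. *Igfbp2* lies at −3.98 in knockout library 1, and the atrial markers lie at 4.02 and 3.98 in WT libraries 1 and 3, where *Igfbp7* lies at 1.15 and 1.14.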

How the data were processed

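RNA of whole mouse hearts was extracted with Trizol and made into libraries with an Illumina TruSeq kit, as the labels' protocols state. FPKM values, 1 column per library, are what the authors deposited, per the file headers. The submitters' processing notes name Cufflinks and mm10. Which aligner, annotation, strand setting and Cufflinks version were used is not stated in those sources. Columns were matched to samples by the short names in the descriptions.

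Starts were raised by 1 to count from 1. Exons and gene types came from GENCODE M21 and promoter sequences from RefSeq (GRCm38.p6), where all 8 members matched by symbol. Depth was recovered from genes with a single transcript of 1000 to 6000 bases, with 77.0% to 81.9% of their low values lying no more than 0.15 from whole fragments. Fragment numbers are approximate, and counting error is the least error they have.

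Genes reaching 1 FPKM in 3 or more libraries entered the test on log2(FPKM + 1), which understates changes of low genes, with limma 3.58.1 in R 4.3.3 (trend and robust; 2 residual degrees of freedom; Benjamini-Hochberg over 12485 genes; threshold 0.05), tested on simulated data. Libraries within 3 times the counting variance of each other were averaged. Permutation tests used scipy 1.17.1. The runs of record numbers are the 2 blocks of sample records, not a stated batch. The members, lists and alternatives were chosen with earlier results of these data known. Named were the members, a fixed set of axis genes, the 3 smallest p of each pathway list, the 2 most abundant of each marker list, genes at 0 in a genotype and the 3 genes most like each member, of which the text gives those a result turns on. *Ltbp4* was the targeted gene. Of the 8 macrophage markers, 7 were used.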

Additional observations from a re-analysis of the deposited data

How the results depend on the processing

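With 2 samples per genotype, limited depth (3700000 fragments in the shallowest library) and a test that called none of the members tested under any of the alternatives (8 members, or 7 without *Igfbp2* where FPKM of at least 1 was asked in all libraries; limma, Benjamini-Hochberg adjusted p from 0.187 to 1), these data limit what can be said of any member. With the 6 libraries as separate samples, 4 of 8 members had an unadjusted p under 0.05, as had 15.1% of all tested genes. Directions of *Igf1*, *Igf1r*, *Igfbp3*, *Igfbp4* and *Igfbp7* held under all 17 alternatives. For all of these but *Igfbp3* the genotypes did not overlap, so leaving out or separating libraries could not reverse the sign. The filter and variance settings cannot change an estimate, so for them the direction was fixed in advance. Over all genes, 1 was called (374 at an unadjusted p under 0.05), 0 without a filter on low values (471 unadjusted) or with FPKM of at least 1 in all libraries (309 unadjusted), 2 with the 6 libraries separate, and 1 to 12 when samples or libraries were left out, with 12 without WT library 2 and 5 without knockout libraries 2 and 3; the cause was not tested.

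*Igfbp5* turned to −0.12 when libraries were rescaled to one total, −0.03 when centred on library medians, and −0.14 with the 6 libraries separate, with a record set term or with the replicate number as a block. The replicate numbers did not pair the libraries (deviations of same-numbered libraries correlated at 0.116, 0.125 and −0.098). The block gave 1 call over all genes and changed no other member's call or sign; its *Igf1* value was −0.79. It gave −0.16 for *Insr* and −0.01 for *Irs1*, as did the 6 separate libraries and the record set term. Leaving out libraries gave −4.39 to 1.42 for *Igfbp2*, −0.25 to 0.27 for *Igfbp5* (−0.02 without WT library 1, −0.19 without knockout library 1), −2.15 to 0.27 for *Igfbp6*, −0.62 to 0.48 for *Ghr* (0.02 without knockout library 2, 0.14 without WT libraries 1 and 3), −1.27 to 1.70 for *Igf2* (−0.38 without WT libraries 1 and 3), −0.47 to 0.82 for *Insr* (−0.18 without WT library 2) and −0.42 to 0.89 for *Irs1*. Lower estimates then numbered 5 to 7 of the members and 4 to 7 of the other axis genes (7 without WT library 2). They numbered 6 to 12 of the signalling genes and 7 to 16 of the FoxO list (12 and 16 without knockout library 1). Of the growth hormone list they numbered 5 to 8. *Igf1* over the summed binding proteins ranged from −0.18 to 0.63, and was −0.01 without *Igfbp7*, a setting chosen after seeing the data. No causes were tested.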
